A study of Rattus norvegicus with 4 samples.

Results

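The cells described here were selected as mural cells of rat skeletal muscle by a set of 5 transcripts, Adra2a, Ccl11, Inmt, Tfpi2 and Rarres1. A barcode was selected when it held at least 500 UMIs (unique molecular identifiers, each standing for 1 captured transcript), at least 200 genes and at most 20% mitochondrial UMIs, together with at least 1 UMI over the mural genes Rgs5, Myh11 and Rgs4. At least 2 of the 5 transcripts had to be detected, with at most 2 UMIs of Myh11 and at most 4 UMIs of Dcn, which kept contractile smooth muscle cells and fibroblasts out. The rule found 414 of 14233 barcodes that passed the count filters, or 2.91%. Of the 414, 171 carried 4 or more of 11 endothelial markers, so the name of mural cells holds for only part of them. The 9 genes of the rule were chosen from these same cells, so their levels and every difference that follows from the selection are given as descriptions with no test.

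Mural cells wrap the outside of blood vessels. Pericytes sit on capillaries and carry the KATP channel subunits Kcnj8 and Abcc9, while smooth muscle cells sit on arterioles and larger vessels and carry contractile proteins such as Myh11 and Acta2. Perivascular cells can release chemokines: Ccl2 and Ccl7 draw monocytes, Ccl11 (eotaxin) draws eosinophils, Cxcl1 draws neutrophils, and Cxcl9 and Cxcl10 draw activated T cells. Of the other genes in the rule, Adra2a encodes the alpha-2A adrenergic receptor, Inmt an N-methyltransferase of indole amines, Tfpi2 a secreted inhibitor of serine proteases, and Rarres1 a protein first known as a retinoic acid response gene. The myofibres of dystrophic muscle, which lack functional dystrophin, degenerate and are infiltrated by leukocytes.

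All 4 libraries were prepared by enzymatic digestion of whole muscle from rats aged 12 months and 10x Genomics 3' single-cell sequencing, with no sorting step named. They were labelled extraocular muscle (EOM) DMD, EOM wild type (WT), tibialis anterior (TA, a shin muscle) DMD and TA WT. DMD is the label's own abbreviation, and neither the allele, the sex nor the number of animals was given. The sample titles state the opposite disease state from the disease state field in all 4 libraries. The field was followed here, and reading the titles instead would swap DMD and WT throughout. With 1 library per group, no difference between groups could be tested, and the 95% intervals given cover counting error only. Dmd, which encodes dystrophin, had 21.7 CPM (UMIs per 1000000 UMIs, summed over cells) over all kept barcodes of EOM labelled DMD and 25.1 CPM in TA labelled DMD, against 26.6 CPM in EOM labelled WT and 29.8 CPM in TA labelled WT. In Myh11-rich smooth muscle cells Dmd stood at 50.8 and 77.1 CPM in EOM and TA labelled DMD, against 148 and 136 CPM in EOM and TA labelled WT, but 3' tags that lie outside a deleted stretch would check nothing, and no allele was named. The deposited matrices held 3093 barcodes and 14953593 UMIs for EOM labelled DMD, 1917 barcodes and 9468266 UMIs for EOM labelled WT, 8944 barcodes and 20685086 UMIs for TA labelled DMD, and 3550 barcodes and 9955900 UMIs for TA labelled WT.

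The 250 bases before the transcription start of 3 genes are printed because the results turn on Ccl7, the chemokine that ranked highest over pericytes across the libraries labelled DMD, and on Inmt and Tfpi2, the pair of rule genes detected together most often. They are from RefSeq on build GRCr8 and run 5' to 3' on the strand of the gene. Capitals mark matches, on either strand, to loose letter patterns: GGGA, any 4 bases, CC for NF-kB, and TGANTCA, with any middle base, for AP-1. The usual sites are narrower, with G or C in the middle for AP-1.
Ccl7 (chr10:67513845-67514094, plus strand): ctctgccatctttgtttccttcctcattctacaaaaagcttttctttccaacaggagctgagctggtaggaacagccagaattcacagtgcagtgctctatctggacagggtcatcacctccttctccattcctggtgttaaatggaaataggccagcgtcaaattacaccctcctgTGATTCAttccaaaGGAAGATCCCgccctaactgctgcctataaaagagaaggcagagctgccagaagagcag
Inmt (chr4:85652756-85653005, minus strand): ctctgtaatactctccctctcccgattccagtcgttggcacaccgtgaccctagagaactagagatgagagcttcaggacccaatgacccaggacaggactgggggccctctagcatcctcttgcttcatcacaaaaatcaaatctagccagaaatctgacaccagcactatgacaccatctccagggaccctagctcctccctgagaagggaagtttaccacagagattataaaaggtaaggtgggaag
Tfpi2 (chr4:32941277-32941526, minus strand): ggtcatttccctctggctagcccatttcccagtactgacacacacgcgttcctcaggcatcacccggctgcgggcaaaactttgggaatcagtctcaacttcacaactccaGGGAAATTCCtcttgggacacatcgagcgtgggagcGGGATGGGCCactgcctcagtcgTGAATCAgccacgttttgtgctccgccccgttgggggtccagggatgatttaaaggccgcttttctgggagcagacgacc
The Ccl7 window held 1 NF-kB match, on the minus strand at 59 to 50 bases before the start, 1 AP-1 match at 73 to 67 bases and a TATAAA at 34 to 29 bases. The Tfpi2 window held 2 NF-kB matches, at 139 to 130 and 103 to 94 bases, and 1 AP-1 match at 80 to 74 bases. The Inmt window held neither motif and had a TATAAA at 21 to 16 bases. Of 33469 rat promoter windows of this length, 16.4% held the NF-kB letters, 6.34% the AP-1 letters and 12.9% TATAAA. Both AP-1 matches have T or A as the middle base, so they fit the loose pattern and not the usual site. These are letter matches and no binding was measured.

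The selected cells were found in every library, in unequal numbers. They numbered 44 of 2303 kept barcodes in EOM labelled DMD, 14 of 1262 in EOM labelled WT, 345 of 8549 in TA labelled DMD and 11 of 2119 in TA labelled WT. As shares of kept barcodes these are 1.91% (exact 95% binomial interval 1.39 to 2.56%) in EOM labelled DMD, against 1.11% (0.608 to 1.85%) in EOM labelled WT. In TA the share was 4.04% (3.63 to 4.47%) in the library labelled DMD, against 0.519% (0.259 to 0.927%) in the library labelled WT. TA labelled DMD thus held the highest share and TA labelled WT the lowest, while the intervals of the EOM libraries overlapped. As a share of all mural cells found by the rules (selected cells, pericytes and smooth muscle cells together), they made up 29.9% of 147 cells in EOM labelled DMD against 15.7% of 89 in EOM labelled WT, and 33.6% of 1026 in TA labelled DMD against 6.29% of 175 in TA labelled WT.

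Depth bears on a rule that counts detected genes. The median kept barcode held 4540 UMIs in EOM labelled DMD, 3672 in EOM labelled WT, 1176 in TA labelled DMD and 2490 in TA labelled WT, whereas the median selected cell held 4078, 3835, 4144 and 4820 UMIs in the same order. When every barcode was thinned to 500 UMIs and the rule was applied again, it found 27 cells (1.17%) in EOM labelled DMD, 5 (0.396%) in EOM labelled WT, 64 (0.749%) in TA labelled DMD and 2 (0.0944%) in TA labelled WT. At equal depth the share in EOM labelled DMD was thus above that in TA labelled DMD, the reverse of the order in the deposited counts, and in each muscle the library labelled DMD held the higher share. Thinning also lowers the counts held to the Myh11 and Dcn limits, so cells above these limits at full depth can pass. The part of such cells in the thinned shares was not tested. No barcode sequence of a selected cell was found in more than 1 library, among 22 shared barcodes in the series.

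**Figure D1:**
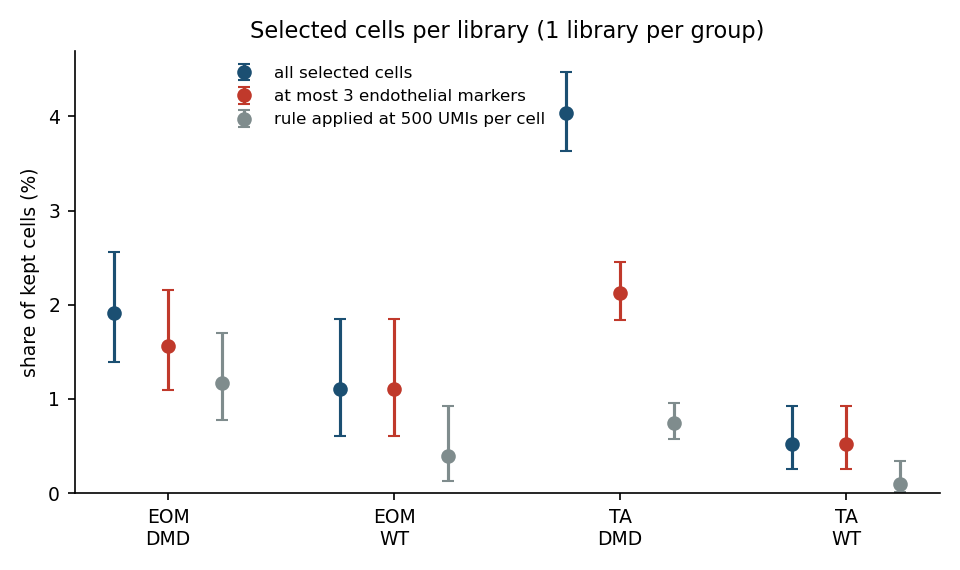
Share of kept barcodes (%) that met the rule in each of the 4 libraries, for all selected cells, for those with at most 3 of 11 endothelial markers, and for the rule applied after thinning every barcode to 500 UMIs; bars are exact 95% binomial intervals. TA labelled DMD holds the highest share as deposited (4.04%), and EOM labelled DMD the highest after thinning (1.17%). After thinning, the interval of EOM labelled DMD overlaps those of TA labelled DMD and EOM labelled WT.

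The label of mural cells held for only some of the cells selected in TA labelled DMD. Each selected cell was scored for 11 endothelial markers, among them Cdh5 (VE-cadherin), Flt1, Kdr, Tie1 and Vwf. In TA labelled DMD 163 of 345 selected cells carried 4 or more of them, and Cdh5 was detected in 153 of 345. In EOM labelled DMD 8 of 44 cells carried 4 or more, and in the EOM and TA libraries labelled WT none of 14 and none of 11 did. The number of markers per cell fell into separate groups in EOM labelled DMD, where no cell carried 3 or 4, and ran without a gap in TA labelled DMD. In TA labelled DMD the endothelial-rich selected cells had a median of 3 mural UMIs, and 66 of the 163 had only 1 or 2, against a median of 8 in the 182 endothelial-poor cells, of which 44 had 1 or 2. Other endothelial cells of TA labelled DMD, which met none of the mural rules, carried at least 1 mural UMI in 575 of 3313 cells (17.4%), against 3.31% in EOM labelled DMD, 1.28% in EOM labelled WT and 2.56% in TA labelled WT, at median depths of 1531, 2699, 2303 and 2385 UMIs. A requirement of 1 mural UMI was therefore met by many cells of another type in that library. Counting only the endothelial-poor selected cells, the share was 1.56% in EOM labelled DMD, 1.11% in EOM labelled WT, 2.13% in TA labelled DMD and 0.519% in TA labelled WT. The split at 4 markers was chosen after the cells were seen, and results are given below for endothelial-poor cells beside those for all selected cells.

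**Figure D2:**
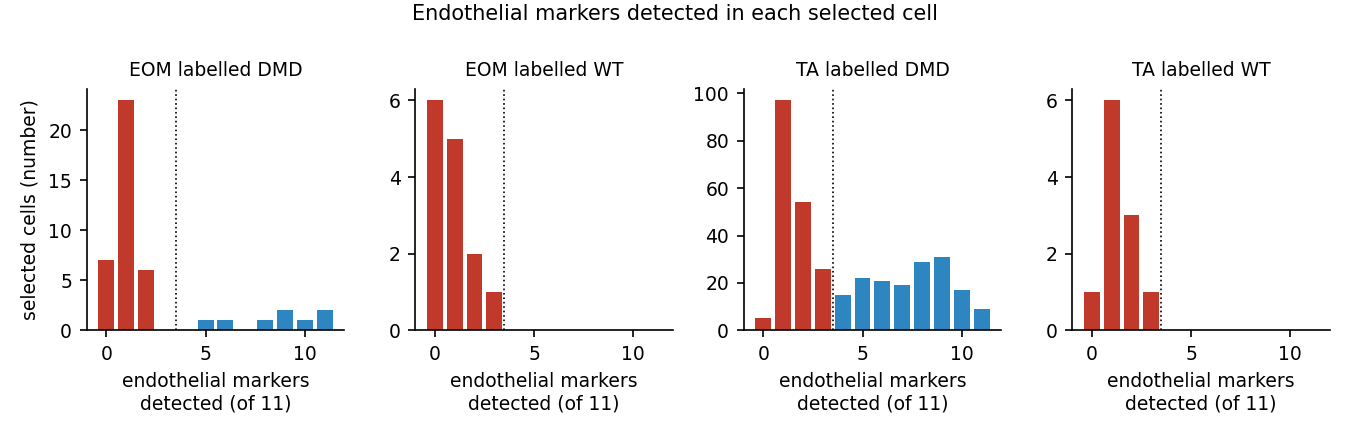
Number of selected cells (y axis) by how many of 11 endothelial markers each cell carried (x axis), 1 panel per library, each with its own y scale; the dotted line separates cells with at most 3 from cells with 4 or more. Cells with 4 or more were found in the libraries labelled DMD, 163 of 345 in TA and 8 of 44 in EOM.

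The 5 transcripts of the rule were seldom all present in the same cell. Most selected cells carried exactly 2 of them: 31 of 44 in EOM labelled DMD, 12 of 14 in EOM labelled WT, 212 of 345 in TA labelled DMD and 7 of 11 in TA labelled WT. All 5 were present in 2 cells of EOM labelled DMD and 12 of TA labelled DMD. Inmt and Tfpi2 without the other 3 were the commonest combination in every library, with 23 of 44 cells in EOM labelled DMD, 4 of 14 in EOM labelled WT, 128 of 345 in TA labelled DMD and 5 of 11 in TA labelled WT. Adra2a and Ccl11 were found in fewer cells: in TA labelled DMD, Inmt was detected in 318 of 345 selected cells and Tfpi2 in 251, while Adra2a was detected in 164, Rarres1 in 88 and Ccl11 in 58.

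Ccl11 was higher in EOM than in TA, in selected cells and over all kept barcodes. Over all kept barcodes it was at 294, 158, 27.7 and 4.22 CPM in EOM labelled DMD, EOM labelled WT, TA labelled DMD and TA labelled WT. In selected cells Ccl11 stood at 1813 CPM in EOM labelled DMD, where 1 cell held 105 of 423 UMIs, and 847 CPM in EOM labelled WT. In selected cells of TA it stood at 166 CPM in the library labelled DMD and 40.6 CPM in that labelled WT, the last from 2 UMIs in 1 cell. Adra2a was at 85.7, 240, 181 and 162 CPM across the libraries in that order, and Inmt stood at 1500, 767, 838 and 1278 CPM. Tfpi2, at 1415, 432, 789 and 609 CPM, was detected in every library, whereas Rarres1, at 72.9, 0, 81.0 and 203 CPM, had no UMI in the 14 cells of EOM labelled WT. Among endothelial-poor cells, Ccl11 was at 2758 CPM in EOM labelled DMD and 127 CPM in TA labelled DMD, and Adra2a at 114 and 284 CPM. In the libraries labelled WT, where every selected cell was endothelial-poor, Ccl11 was higher in EOM. Adra2a rested there on 15 UMIs in EOM, 10 of them in 1 cell, and 8 UMIs in TA. Its intervals overlapped, at 134 to 396 CPM in EOM labelled WT and 70.1 to 320 CPM in TA labelled WT. These levels follow from the selection and carry no test.

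At the edges of the rule in TA labelled DMD, 212 cells had exactly 2 of the 5 transcripts, and 508 cells that met every other condition had 1. In that library 61 selected cells had a sole mural UMI, against 58 cells left out with none, and 64 had 2 UMIs of Myh11, against 24 left out with 3. At the Dcn limit 7 selected cells had 4 UMIs, against 11 left out with 5. In EOM labelled DMD, 31 cells had 2 of the transcripts, against 59 left out with 1, and 1 cell had a sole mural UMI, against 12 left out with none.

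Beyond the genes of the rule, the endothelial-poor selected cells carried pericyte markers in all 4 libraries. The summed level of 12 pericyte markers (Kcnj8, Abcc9, Higd1b, Pdgfrb, Notch3 and others, without Rgs5) was 15059, 18002, 7964 and 14808 CPM in EOM labelled DMD, EOM labelled WT, TA labelled DMD and TA labelled WT. In pericytes, defined by 3 or more mural UMIs, a detected KATP subunit or Higd1b, the same limits on Myh11 and Dcn, and fewer than 2 of the 5 transcripts, it was 17356, 22996, 10673 and 18463 CPM. The selected cells were below pericytes in every library, but Kcnj8, Abcc9 and Higd1b are part of the sum and of the rule that defines the pericytes, so the direction follows in part from that definition. The sum of 15 smooth muscle markers was 5381, 4637, 7891 and 6552 CPM in endothelial-poor selected cells. It was 2841, 3144, 3671 and 3942 CPM in pericytes and 33140, 26295, 27270 and 30697 CPM in smooth muscle cells. The selected cells thus lay above pericytes and far below smooth muscle cells. The gap to smooth muscle cells follows in part from the Myh11 limits that define both classes. The sum of 13 fibroblast markers was 3134, 2142, 6429 and 5619 CPM in endothelial-poor selected cells, against 489, 965, 1223 and 1343 CPM in pericytes, most of it from Gsn and Col3a1. Pdgfra, which defines fibroblasts, was at 0 in the selected cells of EOM labelled DMD and of both WT libraries, and was detected in 3 of 182 endothelial-poor cells of TA labelled DMD. Endothelial markers summed to 1157, 687, 5546 and 2637 CPM in endothelial-poor selected cells, against 3608, 853, 8895 and 3060 CPM in pericytes. The selected cells were split on these same markers and the pericytes were not. The lower sums in the libraries labelled DMD therefore follow in part from the split. Myeloid markers summed to 451 and 370 CPM in endothelial-poor cells of EOM and TA labelled DMD against 2912 and 80.5 CPM in pericytes of those libraries, and were all at 0 in selected cells of both WT libraries. The part of these other markers in the results was not tested.

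Nearest neighbours in expression space were found without the 9 rule genes. Among the 15 nearest neighbours of the 36 endothelial-poor selected cells in EOM labelled DMD, 25.6% were other such cells and 53.7% were pericytes, classes that made up 1.56% and 3.47% of the kept barcodes there. Smooth muscle cells supplied 0.37% of these neighbours, fibroblasts 0.556% and other endothelial cells 0%. In TA labelled DMD, 30.4% of the neighbours of endothelial-poor cells were other such cells (2.13% of kept barcodes), 27.9% were pericytes (5.17%), 3.11% smooth muscle cells (2.80%) and 4.95% other endothelial cells (38.8%). The endothelial-rich cells of TA labelled DMD had each other as 43.1% of their neighbours (1.91% of kept barcodes), other endothelial cells as 21.6% (38.8%) and pericytes as 9.49% (5.17%), so that other endothelial cells were below and pericytes above their share of kept barcodes. The 8 endothelial-rich cells of EOM labelled DMD had other endothelial cells as 61.7% of their neighbours (24.9% of kept barcodes). Genes that vary with the rule genes remained in the space, so these shares are a description.

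**Figure D3:**
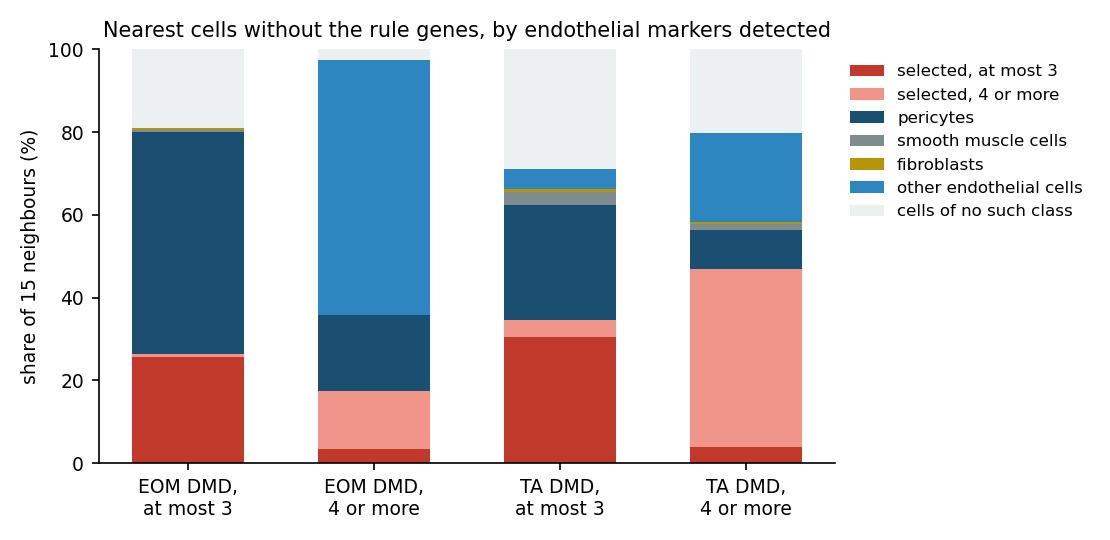
Share (%) of the 15 nearest cells, computed without the rule genes, that fall in each class, for selected cells with at most 3 or with 4 or more endothelial markers in the 2 libraries with over 20 selected cells. Pericytes and other selected cells make up most neighbours of the cells with at most 3 markers, and few of their neighbours are smooth muscle cells or fibroblasts.

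Ccl2 and Ccl7, which the rule did not use, stood above the other mural cells in most libraries. Ccl2 stood at 5778, 4588, 2583 and 872 CPM in endothelial-poor selected cells of EOM labelled DMD, EOM labelled WT, TA labelled DMD and TA labelled WT. In pericytes it was 3340, 1874, 966 and 508 CPM in the same order, and in smooth muscle cells 322, 139, 269 and 3.59 CPM. The selected cells held the highest level of the 3 classes in every library, with EOM above TA. Ccl7 stood at 2825, 975, 1368 and 81.1 CPM in endothelial-poor selected cells, against 404, 120, 155 and 129 CPM in pericytes. It was above pericytes in 3 libraries and not in TA labelled WT, where 4 UMIs in 1 of 11 cells made up the level. In smooth muscle cells Ccl7 had no UMI in either EOM library or in TA labelled WT, and 65.7 CPM in TA labelled DMD. Over all selected cells the Ccl2 levels of the libraries labelled DMD were lower, at 4162 CPM in EOM and 1536 CPM in TA, and Ccl7 was at 2066 and 1124 CPM.

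Ratios between summed levels are given on the log2(CPM + 10) scale, and a gene counts as past 2-fold only if it reached 100 CPM in either sum. They were computed for the libraries with at least 20 selected cells, EOM and TA labelled DMD. For endothelial-poor cells the ratios are taken over pericytes that were also poor in endothelial and myeloid markers, called marker-poor pericytes here. Levels given for pericytes without that name are of all pericytes found by the rule, including those rich in endothelial or myeloid markers. Ccl7 was 6.09-fold (95% interval 4.93 to 7.60) above marker-poor pericytes in EOM labelled DMD and 8.29-fold (6.91 to 9.99) above them in TA labelled DMD. For Ccl2 the fold was 1.51 (1.38 to 1.67) in EOM labelled DMD and 2.24 (2.07 to 2.42) in TA labelled DMD. The intervals treat UMIs as independent, whereas chemokine UMIs were unevenly spread over cells: in EOM labelled DMD, 148 of the 420 Ccl7 UMIs came from 1 of 36 endothelial-poor cells and 10 cells had any, while Ccl2 was detected in 24 of the 36. In TA labelled DMD, Ccl7 was detected in 43 of 182 endothelial-poor cells, with at most 149 of 935 UMIs in a cell, and Ccl2 in 110.

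At equal depth, a larger share of all selected cells than of pericytes had a Ccl2 UMI in every library. The share in selected cells did not follow the order of the Ccl2 levels across libraries. After thinning to 1000 UMIs, Ccl2 was detected in 51.2% of all selected cells in EOM labelled DMD, 57.1% in EOM labelled WT, 50.2% in TA labelled DMD and 54.5% in TA labelled WT, against 37.5, 31.1, 28.6 and 11.8% of pericytes. Before thinning the shares were 63.6, 64.3, 68.1 and 54.5% of selected cells, against 47.5, 47.5, 36.7 and 22.05% of pericytes. In TA labelled DMD, Ccl2 was then detected in 110 of 182 endothelial-poor and 125 of 163 endothelial-rich cells. Barcodes under 1000 UMIs were left out of the thinned shares, among them 24 selected cells and 85 pericytes in TA labelled DMD. The shares of selected cells in EOM and TA labelled WT rest on 14 and 11 cells. In other endothelial cells, Ccl2 was detected in 2.64, 0.958, 10.5 and 0.285% after thinning. At least 2 of Ccl2, Ccl7 and Ccl11 were detected together in 17 of 44 selected cells in EOM labelled DMD, 4 of 14 in EOM labelled WT, 150 of 345 in TA labelled DMD and 1 of 11 in TA labelled WT. In pericytes they were detected together in 9 of 80, 3 of 61, 30 of 442 and 7 of 127 cells, where the definition limits Ccl11. Within TA labelled DMD, co-detection was seen in 101 of 163 endothelial-rich cells, with a median of 5679 UMIs, and 49 of 182 endothelial-poor cells, with a median of 3574 UMIs.

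**Figure D4:**
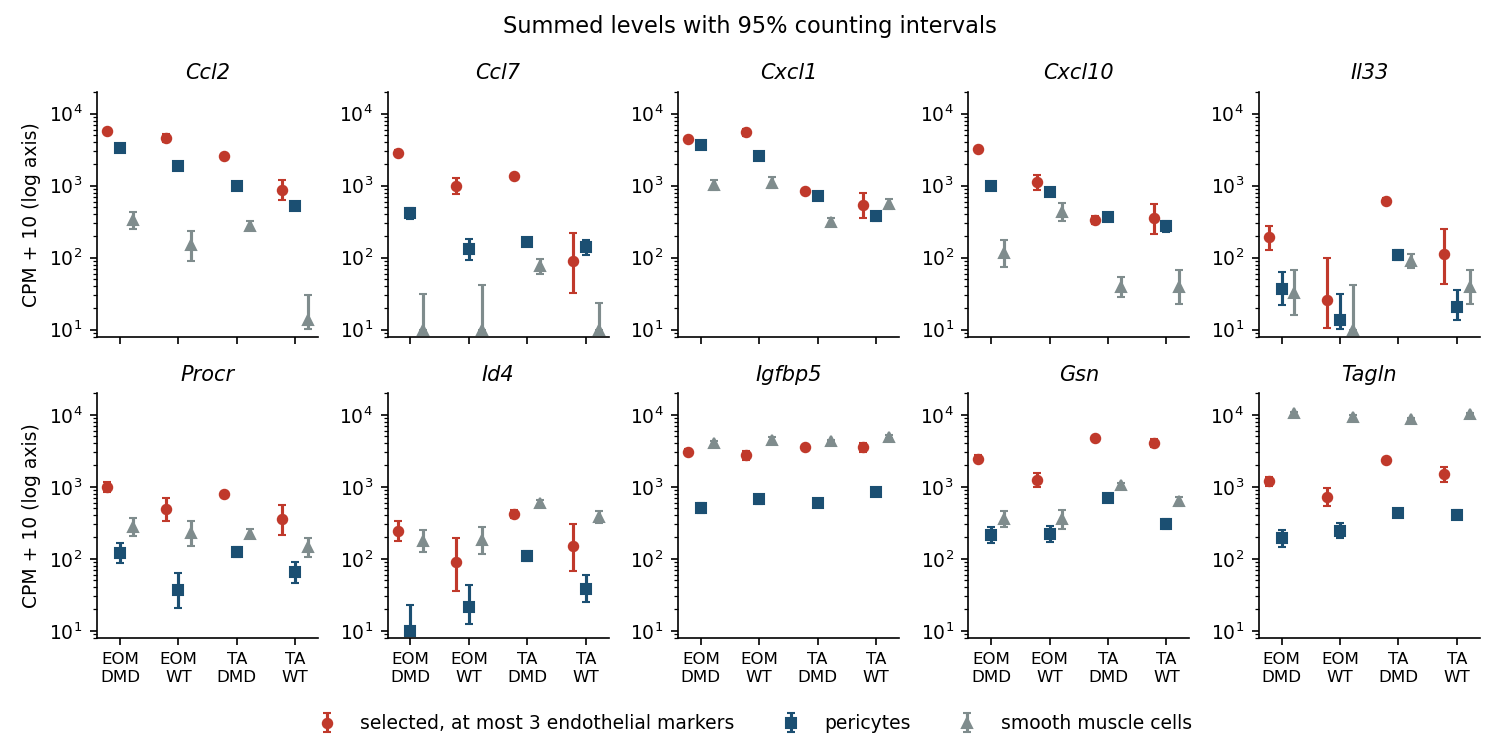
Summed level (CPM + 10, log axis) of 10 genes outside the rule in endothelial-poor selected cells, pericytes and smooth muscle cells, by library; bars are 95% counting intervals of the summed UMIs. Ccl2, Procr, Igfbp5 and Gsn lie above the pericytes in all 4 libraries, and Ccl7 in 3 of them.

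The other cytokines differed in direction. Il33, an alarmin cytokine held in the nucleus, was at 182, 16.0, 601 and 101 CPM in endothelial-poor selected cells of EOM labelled DMD, EOM labelled WT, TA labelled DMD and TA labelled WT, against 27.2, 3.76, 99.8 and 10.9 CPM in pericytes, with 1 UMI behind each of the EOM labelled WT values. Cxcl1 was at 4385, 5532, 824 and 527 CPM, against 3659, 2565, 713 and 368 CPM in pericytes. Cxcl10 was at 3188, 1119, 320 and 345 CPM, against 991, 807, 357 and 265 CPM, and 238 of its 474 UMIs in EOM labelled DMD came from 1 cell. Cxcl9 was at 1500, 1311, 786 and 325 CPM, against 1979, 1130, 1754 and 553 CPM, below pericytes in 3 of the 4 libraries. Of the 34 cytokines and chemokines listed apart from Ccl11, 10 reached the level filter in all selected cells of EOM labelled DMD and 8 in TA labelled DMD. Past 2-fold against pericytes were Ccl5, Ccl7, Cxcl10 and Il33, all higher, in EOM labelled DMD, where 6.15% of 1871 genes were past 2-fold in the higher direction and 4.33% in the lower. Of the 35 Ccl5 UMIs in EOM labelled DMD, 34 came from 1 cell. In TA labelled DMD Ccl7 and Il33 were higher and Cxcl9 and Cxcl12 lower, where 4.78% of 1798 genes were past 2-fold higher and 5.9% lower. The list medians, 0.42 in EOM labelled DMD and 0.15 in TA labelled DMD, lay beside medians over all genes of -0.02 and -0.06. For endothelial-poor cells 4 of 10 were higher in EOM labelled DMD (5.61% of all genes) and 4 of 9 in TA labelled DMD (3.76%), where Ccl2 and Il6 joined Ccl7 and Il33.

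Lists of inflammatory signalling and of stress were read against the shares of all genes past 2-fold, 6.15% higher and 4.33% lower in EOM labelled DMD and 4.78% higher and 5.9% lower in TA labelled DMD. For endothelial-poor cells the shares were 5.61% higher and 3.31% lower in EOM labelled DMD, and 3.76% higher and 2.39% lower in TA labelled DMD. Of the NF-kB response list, none of 6 genes at the level filter in EOM labelled DMD was past 2-fold over all selected cells, and in TA labelled DMD 1 of 7, the adhesion molecule Vcam1, was higher. Vcam1 was at 283 CPM in endothelial-rich and 64.4 CPM in endothelial-poor selected cells of TA labelled DMD, against 17.7 CPM in pericytes. In endothelial-poor cells none of 7 NF-kB genes in EOM labelled DMD and none of 6 in TA labelled DMD was past 2-fold. Of the interferon response list, 2 of 9 were higher in EOM labelled DMD (Ifit2 and Irf7) and none of 7 in TA labelled DMD, and in endothelial-poor cells 1 of 10 (Irf7) and none of 6. Immediate early genes, which enzymatic digestion can induce, were past 2-fold for none of 14 in EOM labelled DMD and 1 of 15 in TA labelled DMD (Fosb, lower), and for none of 15 in endothelial-poor cells of either library. Of the heat shock genes, Hspa1b was lower in both libraries, as 1 of 7 in EOM and 1 of 8 in TA, and in endothelial-poor cells in EOM alone, where it was 1 of 7, against none of 7 in TA.

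Several genes of vessel wall and matrix biology stood well above pericytes. Procr, the receptor for protein C of the anticoagulant pathway, was at 989, 480, 777 and 345 CPM in endothelial-poor selected cells of EOM labelled DMD, EOM labelled WT, TA labelled DMD and TA labelled WT, against 112, 26.3, 114 and 54.7 CPM in pericytes. The selected cells were higher in all 4 libraries. Against marker-poor pericytes Procr was 7.50-fold (5.06 to 11.4) higher in EOM labelled DMD and 9.27-fold (7.21 to 12.1) higher in TA labelled DMD. Thbd, which encodes thrombomodulin of the same pathway, was at 370, 144, 410 and 101 CPM against 122, 78.9, 289 and 70.0 CPM in pericytes. Against marker-poor pericytes Thbd was 4.58-fold (2.68 to 8.17) higher in EOM labelled DMD and 2.72-fold (2.19 to 3.39) higher in TA labelled DMD. Of the genes listed for protease inhibition, coagulation and proteolysis, 3 of 10 at the level filter were past 2-fold higher in all selected cells of EOM labelled DMD (Thbd, Timp1 and Plat), against 6.15% of all genes, and 2 of 10 in TA labelled DMD (Thbd and Timp1), against 4.78%, where Timp3 was lower. In endothelial-poor cells 2 of 9 were higher in EOM labelled DMD (Thbd and Timp2; 5.61% of all genes) and 4 of 9 in TA labelled DMD (Thbd, Timp1, Timp2 and Adamts1; 3.76%).

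Igfbp5, a binding protein of insulin-like growth factors, was at 3006, 2718, 3539 and 3509 CPM in endothelial-poor selected cells, against 499, 665, 577 and 831 CPM in pericytes and 4047, 4474, 4347 and 4987 CPM in smooth muscle cells. It thus lay well above the pericytes and below the smooth muscle cells in every library. Igfbp6 was at 202, 224, 341 and 60.9 CPM, against 40.7, 56.3, 56.4 and 19.7 CPM in pericytes, and Igfbp4 at 874, 608, 884 and 203 CPM, against 516, 297, 253 and 168 CPM. Id4, an inhibitor of helix-loop-helix transcription factors, was at 235, 79.9, 408 and 142 CPM, against 0, 11.3, 99.8 and 28.4 CPM in pericytes. In EOM labelled DMD, where the pericytes held no Id4 UMI, all selected cells were at least 22.7-fold higher, taking 3 counts as the floor of the pericyte sum. Smooth muscle cells held 169, 174, 583 and 373 CPM of Id4, so it was shared with them.

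Gsn, the actin-severing protein gelsolin, was at 2455, 1231, 4794 and 4057 CPM in endothelial-poor selected cells, against 207, 210, 682 and 293 CPM in pericytes. Tagln, an actin-binding protein of smooth muscle, was at 1177, 719, 2384 and 1481 CPM, against 183, 237, 424 and 398 CPM in pericytes and 10437, 9252, 8681 and 10225 CPM in smooth muscle cells. Acta2, smooth muscle actin, was at 1359, 1199, 1629 and 1339 CPM, against 526, 387, 623 and 558 CPM in pericytes and 9393, 6698, 6806 and 7493 CPM in smooth muscle cells. Both contractile genes lay above pericytes and below smooth muscle cells in all 4 libraries, the latter in part through the Myh11 limits of the rules. The part of the pericyte definition in the former was not tested. Of the fibrillar matrix genes, Col3a1 was past 2-fold higher in all selected cells of EOM labelled DMD (1 of 6 at the level filter, against 6.15% of all genes). Bgn and Fbn1 were higher in TA labelled DMD (2 of 8, against 4.78%). The collagen Col3a1 was at 437, 799, 904 and 1197 CPM in endothelial-poor cells, against 109, 601, 341 and 967 CPM in pericytes, and 3206, 7766, 4775 and 3361 CPM in Dcn-rich fibroblasts, of which TA labelled WT held 3. Fibroblast markers move with these values, as given above, and their part was not tested.

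Ranking genes by the smaller of their ratios in the libraries labelled DMD gave Ccl7, Il33, Procr, Fam110d, Emp1, Id4, Tagln, Vwf, Scarb1 and Lrg1 as the 10 highest over pericytes for all selected cells. Of these, Vwf (von Willebrand factor of endothelial cells) was at 6.73 and 8.78 CPM in endothelial-poor cells of EOM and TA labelled DMD but at 366 and 222 CPM in endothelial-rich cells, and Fam110d, Scarb1 and Lrg1 were likewise at 0 CPM in EOM and at most 29.3 CPM in TA in endothelial-poor cells. For endothelial-poor cells the ranking gave Il33, Procr, Id4, Ccl7, Tagln, Ifitm1, Mustn1, Plac9, Rgs16 and Ptprf, and 5 of the 10 genes were shared by both lists. Ifitm1, an interferon-induced membrane protein, was at 437, 192, 524 and 264 CPM in endothelial-poor selected cells, against 33.9, 41.3, 184 and 43.8 CPM in pericytes. Rgs16, a regulator of G protein signalling, was at 908, 911, 1898 and 183 CPM, against 156, 15.02, 895 and 116 CPM. The part of endothelial markers in the ratios of all selected cells was not tested beyond this split.

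Fewer genes were past 2-fold lower than higher in endothelial-poor cells. Against marker-poor pericytes 62 genes (3.31%) were past 2-fold lower in EOM labelled DMD and 42 (2.39%) in TA labelled DMD. Dlk1, a Notch-like transmembrane protein, was at 209 CPM in endothelial-poor selected cells against 595 CPM in marker-poor pericytes of EOM labelled DMD, and at 26.3 against 154 CPM in TA labelled DMD. Tgfb2, a ligand of the TGF-beta family, was at 60.5 against 136 CPM in EOM labelled DMD and 55.6 against 222 CPM in TA labelled DMD. Enpep, the aminopeptidase that cleaves angiotensin II, was at 114 against 298 CPM and 129 against 264 CPM. Zfp385d had log2 ratios of -1.23 in EOM labelled DMD and -1.28 in TA labelled DMD, and Prex2, Tesc, Chn1 and Scarf1 lay between -0.95 and -1.40. The myofibre gene Myl1 led this list in rank, but 62 of 65 UMIs in EOM labelled DMD pericytes and 94 of 125 in TA labelled DMD pericytes came from 1 cell each. When scaling by the median of gene ratios, all selected cells of TA labelled DMD had 136 genes higher and 69 lower than pericytes, against 86 higher and 106 lower with CPM, since the scaling moved the median over genes from -0.06 to 0.14.

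The receptors for vessel tone differed in direction from pericytes. Beside the counts below, 5.9% of all genes were past 2-fold lower in all selected cells of TA labelled DMD. In its endothelial-poor cells 2.39% were lower and 3.76% higher. Of the vasoactive receptors, none of 11 at the level filter was past 2-fold in EOM labelled DMD, and 3 of 9 were lower in TA labelled DMD over all selected cells: Ednrb, Gucy1b1 and Adora2a. In endothelial-poor cells of TA labelled DMD 1 of 12, the alpha-1D adrenergic receptor Adra1d, was lower. Adra1d was at 182, 224, 45.4 and 264 CPM in endothelial-poor selected cells, against 221, 248, 79.7 and 203 CPM in pericytes. Npy1r, the neuropeptide Y receptor of sympathetic signalling, was at 343, 320, 481 and 446 CPM, against 204, 199, 262 and 363 CPM, above pericytes in all 4 libraries by less than 2-fold. Of the channels, Kcnj8, Abcc9 and the chloride channel Ano1 were past 2-fold lower in all selected cells of TA labelled DMD, and none of 8 was past 2-fold in EOM labelled DMD. Pericytes were chosen for a UMI of Kcnj8, Abcc9 or Higd1b, so lower values of Kcnj8 and Abcc9 follow in part from that choice. In endothelial-poor cells of TA labelled DMD Kcnj8 was at 1171 CPM against 2078 CPM in marker-poor pericytes, and Abcc9 at 1323 against 2322 CPM. Basement membrane genes were lower for 5 of 8 in all selected cells of TA labelled DMD (Col4a2, Lama2, Lama4, Lamb1 and Nid1), while in endothelial-poor cells 1 of 9 was lower (Lama2) and 1 higher (Col18a1). None of 6 was past 2-fold in EOM labelled DMD.

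Against smooth muscle cells the differences were wider. In all selected cells 320 genes (16.6%) were past 2-fold higher and 274 (14.2%) lower in EOM labelled DMD, with 214 (12.2%) higher and 170 (9.72%) lower in TA labelled DMD. The genes that ranked highest were Ccl7, Fam110d, Cxcl10, Tent5a, Il33, Ccl2, Lrg1, Rgs16, Nuak1 and Upp1. Ccl7 was at least 122-fold higher in EOM labelled DMD, where the smooth muscle sum held no UMI, and 17.1-fold (13.0 to 23.0) higher in TA labelled DMD. Of the cytokines, 9 of 10 were higher in EOM labelled DMD and 5 of 8 in TA labelled DMD. All 14 smooth muscle markers at the level filter were lower in both, among them Cnn1 (calponin), with 0 CPM in selected cells against 152 CPM in EOM labelled DMD and 1.02 against 135 CPM in TA labelled DMD. Smooth muscle cells were chosen for more than 2 Myh11 UMIs and selected cells for at most 2, so this direction follows in part from the definitions. Map3k7cl, Rergl, Nrgn, Fmod, Xirp1, Mill1, Pdlim3, Mt3 and Sncg completed the 10 lowest, with selected cells at 0 to 17.1 CPM in EOM labelled DMD and, apart from Sncg at 243 CPM, 0.509 to 9.67 CPM in TA labelled DMD. Interferon response genes were higher for 7 of 8 in EOM labelled DMD and 6 of 7 in TA labelled DMD, among them B2m, the light chain of MHC class I. In endothelial-poor cells they were higher for 9 of 9 in EOM labelled DMD and 3 of 6 in TA labelled DMD, B2m not among those 3. For endothelial-poor cells, set against smooth muscle cells also poor in endothelial and myeloid markers, 20.1% of genes were higher and 15.2% lower in EOM labelled DMD, and 11.9% higher and 9.67% lower in TA labelled DMD. Higd1b, Kcnj8, Ager and Cxcl9 then entered the 10 highest, and 6 of the 10 highest and 9 of the 10 lowest genes were shared with the ranking of all selected cells.

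Between the muscles, EOM labelled DMD was set against TA labelled DMD. Over all selected cells 110 genes (6.12%) were past 2-fold higher and 106 (5.9%) lower, or 86 higher and 141 lower when scaled by the median of gene ratios. Cxcl1 was at 2945 CPM in EOM against 550 CPM in TA, and Cxcl10 at 2186 against 240 CPM. In endothelial-poor cells 123 genes (6.67%) were higher and 94 (5.1%) lower. Both chemokine ratios held there, at 4385 against 824 CPM for Cxcl1 and 3188 against 320 CPM for Cxcl10, with the single EOM cell named above behind 238 of the 474 Cxcl10 UMIs. Nr2f1, a nuclear receptor that regulates transcription, was at 269 CPM in endothelial-poor cells of EOM against 27.8 CPM in TA, a fold of 9.68 (5.47 to 17.7). Nrarp, a target and inhibitor of Notch signalling, was at 1406 against 206 CPM, and Dlk1 at 209 against 26.3 CPM. Dlk1 was also higher in EOM among marker-poor pericytes of these libraries, at 595 against 154 CPM. The pericyte levels of Cxcl1 and Cxcl10 given above were higher in EOM as well, so these differences between muscles were not particular to the selected cells. Pericyte markers were higher in EOM for 9 of 10 genes over all selected cells and for 6 of 11 in endothelial-poor cells, which include Kcnj8, Higd1b and Cspg4.

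The 10 genes that ranked lowest in EOM over all selected cells included Cytl1, Plvap, Selp, Cyp26b1 and Sele, and Plvap, Selp and Sele (the fenestral diaphragm protein of endothelium and the P- and E-selectins) were at 0 CPM in endothelial-poor cells of EOM labelled DMD and 76.1, 17.6 and 4.39 CPM in those of TA labelled DMD. Within endothelial-poor cells, Cyp26b1, which breaks down retinoic acid, had no UMI in EOM against 176 CPM in TA, at least 8.70-fold lower. Fst, the activin antagonist follistatin, had no UMI against 135 CPM, at least 6.67-fold lower. EOM labelled WT held both in its 14 cells, at 112 CPM of Cyp26b1 and 79.9 CPM of Fst, where 3 counts stand for 48.0 CPM. Over all selected cells of EOM labelled DMD, Cyp26b1 was at 8.57 CPM. These levels rest on few UMIs, and the difference between the EOM libraries was not tested. Fgl2, a fibrinogen-like protein, was at 404 against 2536 CPM. Il33 was at 182 against 601 CPM. The leukocyte genes Hcst, Rgs1, Xcl1, Klrb1b and Rac2 were also among the 10 highest in EOM, and each had all of its UMIs in 1 of the 36 endothelial-poor cells.

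The endothelial-rich selected cells of TA labelled DMD were set against other endothelial cells of that library, with 60 genes (3.47%) past 2-fold higher and 77 (4.46%) lower among 1727. Igfbp5 was at 1406 CPM against 196 CPM in other endothelial cells, Tagln at 946 against 140 CPM, Acta2 at 653 against 112 CPM, the myosin light chain Myl9 at 262 against 38.9 CPM, and Rasl11a at 605 against 64.2 CPM. Ccl2 was at 978 against 200 CPM and Ccl7 at 993 against 248 CPM. The selected cells were chosen for a mural UMI and for transcripts of the rule. The other endothelial cells met none of the mural rules, and 17.4% of them held a mural UMI. Higher Tagln, Acta2 and Myl9 therefore follow in part from the selection. The part of the selection in the other differences, Igfbp5, Ccl2 and Ccl7 among them, was not tested. Lower were capillary and lymphatic genes: Ccl21, a chemokine of lymphatic endothelium, at 3.90 against 338 CPM, Cldn5, a tight junction protein, at 260 against 1569 CPM, Ca4 at 39.0 against 210 CPM, Gpihbp1, which anchors lipoprotein lipase in capillaries, at 244 against 950 CPM, and Cxcl12 at 442 against 1773 CPM. Selp, Sele and Plvap, genes of venular and activated endothelium, were higher, at 253 against 108 CPM, 208 against 68.0 CPM and 1162 against 558 CPM. These cells held a median of 5679 UMIs, against 1531 in the other endothelial cells and 3574 in endothelial-poor selected cells. Barcodes that captured 2 cells were not called here, and their part was not tested.

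Within each muscle the libraries labelled WT held 14 and 11 selected cells, too few for gene-by-gene ratios, so the levels above stand side by side. In EOM, the library labelled DMD was higher than the library labelled WT for Ccl7 (2825 against 975 CPM), Cxcl10 (3188 against 1119 CPM) and Procr (989 against 480 CPM) in endothelial-poor cells, and lower for Cxcl1 (4385 against 5532 CPM). Ccl2 was at 5778 CPM (5398 to 6177) in EOM labelled DMD against 4588 CPM (4073 to 5151) in EOM labelled WT. In TA, the library labelled DMD was higher than the library labelled WT for Ccl2 (2583 against 872 CPM), Ccl7 (1368 against 81.1 CPM), Il33 (601 against 101 CPM) and Rgs16 (1898 against 183 CPM), whereas Igfbp5 (3539 against 3509 CPM) and Gsn (4794 against 4057 CPM) were closer. Pericytes of the same libraries differed as well. In EOM labelled DMD against EOM labelled WT, pericytes held 404 against 120 CPM of Ccl7, 991 against 807 CPM of Cxcl10, 112 against 26.3 CPM of Procr, 3659 against 2565 CPM of Cxcl1 and 3340 against 1874 CPM of Ccl2. Between TA labelled DMD and TA labelled WT, pericytes held 966 against 508 CPM of Ccl2, 155 against 129 CPM of Ccl7, 99.8 against 10.9 CPM of Il33, 895 against 116 CPM of Rgs16, 577 against 831 CPM of Igfbp5 and 682 against 293 CPM of Gsn. No replicate library is at hand for any of these differences.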

How the data were processed

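Single-cell suspensions were profiled in 4 libraries, 1 per muscle and disease label. The authors deposited gene by barcode matrices of UMI counts. The file headers name Cell Ranger 4.0.0, and the submitters' processing notes list build rn6. Members, gene lists and comparisons were chosen with earlier results of these data known. The 25399 genes were used as deposited. Pecam1 and some other listed genes are not used here. Some list members are not reported here. Promoter sequences are from RefSeq on GRCr8 and carry no coordinates of the files' build.

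UMI counts were summed per class and library and given as CPM with exact Poisson 95% intervals. Folds have exact conditional binomial intervals, and shares have Clopper-Pearson intervals. All cover counting error only, since reads of the same cell are not independent samples. Genes entered a comparison at 100 CPM or more in either sum, and were called at 2-fold on the log2(CPM + 10) scale. A comparison needed 20 selected cells on each side. No test was made, and no doublet caller was run.

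The genes named were the 10 highest and 10 lowest by the smaller ratio in the 2 libraries labelled DMD (or the ratio itself between muscles), with genes of the rule left out, plus members of the lists. Smooth muscle cells had more than 2 Myh11 UMIs and at most 4 of Dcn. Fibroblasts had more than 4 Dcn UMIs and a Pdgfra UMI. Other endothelial cells had 4 or more endothelial markers and met no other rule. The endothelial split, and the limit of 2 of 10 myeloid markers for marker-poor classes, were added after the data were seen. Analyses used numpy 2.4.6, scipy 1.17.1, pandas 2.3.3, scanpy 1.11.5 and matplotlib 3.10.9, and the ratio step was tested on simulated data.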

Additional observations from a re-analysis of the deposited data

Results flagged for a closer look

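Rgcc, a cell cycle regulator found in endothelium, lay on opposite sides of the pericytes in the 2 libraries labelled DMD. Over all selected cells its log2 ratio was 1.57 in EOM labelled DMD (352 CPM in selected cells against 112 CPM in pericytes) and -1.04 in TA labelled DMD (116 against 248 CPM). In endothelial-poor cells it was at 101 against 8.50 CPM in marker-poor pericytes of EOM labelled DMD and 32.2 against 36.4 CPM in TA labelled DMD. The difference was not tested.

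Ch25h, which makes 25-hydroxycholesterol, differed in the same way against smooth muscle cells. Its log2 ratio was 1.72 in EOM labelled DMD (339 CPM in selected cells against 96.0 CPM) and -1.36 in TA labelled DMD (130 against 350 CPM). This difference was not tested either.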

How the results depend on the processing

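The share of kept barcodes was 0.564% in EOM labelled DMD, 0.158% in EOM labelled WT, 1.56% in TA labelled DMD and 0.189% in TA labelled WT when 3 of the 5 transcripts were required, and 1.17%, 0.396%, 0.749% and 0.0944% after thinning to 500 UMIs. In TA labelled DMD it was 6.83% under the stricter barcode filter (1000 UMIs, 10% mitochondrial), 2.75% with 3 mural UMIs, 2.22% without cells holding a Cdh5 or Ptprc UMI, and 2.13% for endothelial-poor cells. Against pericytes in EOM labelled DMD, the 115 genes higher became 75 without Cdh5 or Ptprc cells, 72 with CPM averaged over cells and 356 with no filter beyond 10 UMIs over both sums, and the 81 lower became 130 under the stricter barcode filter and 383 with no filter. Against pericytes in TA labelled DMD, the 86 higher became 134 with 3 transcripts, 52 without Cdh5 or Ptprc cells, 136 with median-of-ratios scaling and 197 with no filter. The 106 lower became 39 without Cdh5 or Ptprc cells, 69 with median-of-ratios scaling, 58 with CPM averaged over cells, 246 with no filter and 42 for endothelial-poor cells. With no filter the counts were 830 higher and 521 lower against smooth muscle cells in EOM labelled DMD, 538 and 412 in TA labelled DMD, and 338 and 495 between the muscles. Against pericytes in EOM labelled DMD, Scarb1 turned to -0.89 without Cdh5 or Ptprc cells and to -0.89 in endothelial-poor cells, and Lrg1 to -0.51 in endothelial-poor cells. The cause of these shifts was not tested. Of 820 values of named genes 694 stayed, 123 moved and 3 reversed, and of 716 list medians 635 stayed and 81 moved. Requiring 3 transcripts left 13 cells in EOM labelled DMD, and the stricter filters left 2 smooth muscle cells there, too few to be fitted. No paired analysis was possible because each group is 1 library. The libraries labelled WT held 14 and 11 selected cells, and TA labelled DMD had the lowest median depth of kept barcodes, 1176 UMIs.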
